A study of Homo sapiens with 4 samples.

Results

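This account concerns 44 interferon-stimulated and antiviral genes, listed by symbol. Of these, 32 had a probe set with their symbol alone in the platform annotation, and each of the 32 had exactly 1. The other 12, which are IFI6, IFI27, IFI16, MX1, OAS1, OAS2, OAS3, CMPK2, LGALS3BP, PARP9, PARP14 and STAT2, were not analysed here. All 32 passed the filter on low values and so stood among the 12755 genes tested, out of 14884 genes with a symbol. The cells were MDA-MB-231Br, a brain-seeking subline that was derived from MDA-MB-231 breast cancer cells, although the sample titles name MDA-MB-231. The control group (2 arrays) carried a lentiviral control short hairpin RNA (shControl), and the other group (2 arrays) carried a lentiviral short hairpin RNA against YTHDF3 (shYTHDF3), a cytoplasmic reader of N6-methyladenosine on RNA. Both groups went through viral transduction and puromycin selection, so untransduced cells were not analysed here. The labels do not say whether the cells were pools or clones, how many hairpin sequences were used, or whether the arrays of a group came from separate cultures. P-values therefore measure only the spread between these arrays, which may be technical.

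Type I interferons act through a cell-surface receptor, JAK kinases and a transcription factor complex that contains IRF9 and binds the interferon-stimulated response element (ISRE) in promoters. The genes it switches on encode RNA-binding effectors, membrane proteins that block virus entry, and the RNA sensors and transcription factors of the pathway itself. Many of them are also transcribed at a basal level in tumour cell lines. YTHDF3 has been reported in other cells to limit interferon-stimulated genes by promoting translation of the transcription factor FOXO3, and the comparison asks here which of these transcripts differ when YTHDF3 is targeted.

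Promoters of the listed genes often hold the element. RefSeq windows of 300 bases, from 250 before to 50 after a gene start (GRCh38.p14), were present for 35 of the 44 genes, 9 of them with more than 1 start. The ISRE core GAAANNGAAA was searched on both strands, and matches may overlap each other. It occurred in at least 1 window of 24 of these 35 genes (68.6%), against 4.38% of all 27305 genes with a window. The interferon-gamma element TTCNNNGAA, which reads the same on both strands, occurred in 10 of the 35 (28.6%) against 9.38% of all genes. The windows printed here belong to the members with an unadjusted p under 0.05 that had an entry, and to IFITM1, the neighbour of IFITM3. IFITM2, IFIT2 and IRF7 also had an unadjusted p under 0.05 but had no entry, so their promoters were not examined. For genes with more than 1 start, which include IFIT3, the window with the most ISRE-core matches was taken. Each is given 5′ to 3′ on the gene's strand, with ISRE-core matches in capitals.
IFITM1, chr11:313790-314089, plus strand: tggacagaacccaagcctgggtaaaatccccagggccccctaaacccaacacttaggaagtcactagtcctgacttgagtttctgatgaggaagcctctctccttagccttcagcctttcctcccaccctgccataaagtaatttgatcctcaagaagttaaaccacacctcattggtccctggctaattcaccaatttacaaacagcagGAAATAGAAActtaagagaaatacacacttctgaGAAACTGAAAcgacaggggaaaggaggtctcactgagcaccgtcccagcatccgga
IFITM3, chr11:320811-321110, minus strand: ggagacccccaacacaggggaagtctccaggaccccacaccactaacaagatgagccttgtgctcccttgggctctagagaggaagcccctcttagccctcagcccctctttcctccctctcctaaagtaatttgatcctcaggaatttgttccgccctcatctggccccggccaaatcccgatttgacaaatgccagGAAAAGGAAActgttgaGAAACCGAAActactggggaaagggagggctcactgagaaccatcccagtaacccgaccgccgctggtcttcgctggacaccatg
DDX60, chr4:168318703-168319002, minus strand: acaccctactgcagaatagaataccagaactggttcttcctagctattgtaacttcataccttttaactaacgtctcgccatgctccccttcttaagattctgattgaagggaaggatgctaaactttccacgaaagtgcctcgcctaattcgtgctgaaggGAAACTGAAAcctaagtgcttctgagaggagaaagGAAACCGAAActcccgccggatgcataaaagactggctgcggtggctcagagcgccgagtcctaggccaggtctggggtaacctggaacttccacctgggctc
TRIM5, chr11:5685025-5685324, minus strand: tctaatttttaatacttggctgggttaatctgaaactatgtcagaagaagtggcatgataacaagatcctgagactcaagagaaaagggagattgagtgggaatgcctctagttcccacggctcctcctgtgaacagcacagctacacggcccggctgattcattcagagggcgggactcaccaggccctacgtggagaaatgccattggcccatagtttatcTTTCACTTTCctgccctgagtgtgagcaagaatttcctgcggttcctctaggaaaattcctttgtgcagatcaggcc
IFIT3, chr10:89327747-89328046, plus strand: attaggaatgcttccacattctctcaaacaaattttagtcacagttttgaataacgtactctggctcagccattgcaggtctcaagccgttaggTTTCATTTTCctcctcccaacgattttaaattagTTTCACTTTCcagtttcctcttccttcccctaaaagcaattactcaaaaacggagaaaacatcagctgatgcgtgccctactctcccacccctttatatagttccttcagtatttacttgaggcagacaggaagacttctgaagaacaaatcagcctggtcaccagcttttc

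In IFITM1 the matches began 40 and 6 bases upstream of the start, and in IFITM3 52 and 35 bases upstream, all on the gene's strand. Aligned end to end, the windows of these paralogs were identical at 213 of 335 alignment columns (63.6%). No other windows were aligned, so this share has no baseline. DDX60 had matches 88 and 53 bases upstream. Those of TRIM5 (27 bases upstream) and IFIT3 (156 and 122 bases upstream) lay on the opposite strand and therefore read TTTC first. Promoters that carry the core belong to members with differences of either sign: of the 24 measured members with a window, 17 had a match, 7 of them with a negative and 10 with a positive log2 difference (median 0.03). The 7 without a match had 4 negative and 3 positive differences (median -0.03). IFITM2, IFIT2, IRF7, OASL, MX2, USP18, TRIM22 and DHX58 were measured but had no window and are in neither group. A match is a description of the sequence and does not show that a factor binds there.

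None of the 32 tested members passed the test, and their median difference was close to 0. Of the 32 members 0 fell and 0 rose at an adjusted p under 0.05 from limma. Over all tested genes 0.753% were called, so 0 of 32 is close to that share. In number these were 96 genes. That count was 0 without either control array, 36 without shYTHDF3 replicate 1 and 35 without shYTHDF3 replicate 2. The smallest adjusted p among the members was 0.115, for IFITM2. The median log2 difference, shYTHDF3 minus shControl, was 0.02 over the members and 0.00402 over all genes tested, with 15 members negative and 17 positive. At an unadjusted p under 0.05, 5 members were lower (15.6%, against 8.48% of all genes) and 2 were higher (6.25%, against 6.24%). The arrays of the groups did not overlap for 9 members with lower knockdown values (28.1%, against 22.8% of all genes) and for 5 with higher ones (15.6%, against 22.6%). These shares were not tested against each other. The 95% interval of the difference lay within 2-fold in both directions for 31 of the 32. The exception was IFITM2, whose interval ran from -1.38 to -0.43. The share of such intervals was not counted over all genes tested. There the 5th and 95th percentiles of the difference were -0.46 and 0.38. For the 10 members with control means below 4 the difference can be understated, so their intervals may not bound the change in transcript.

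**Figure D1:**
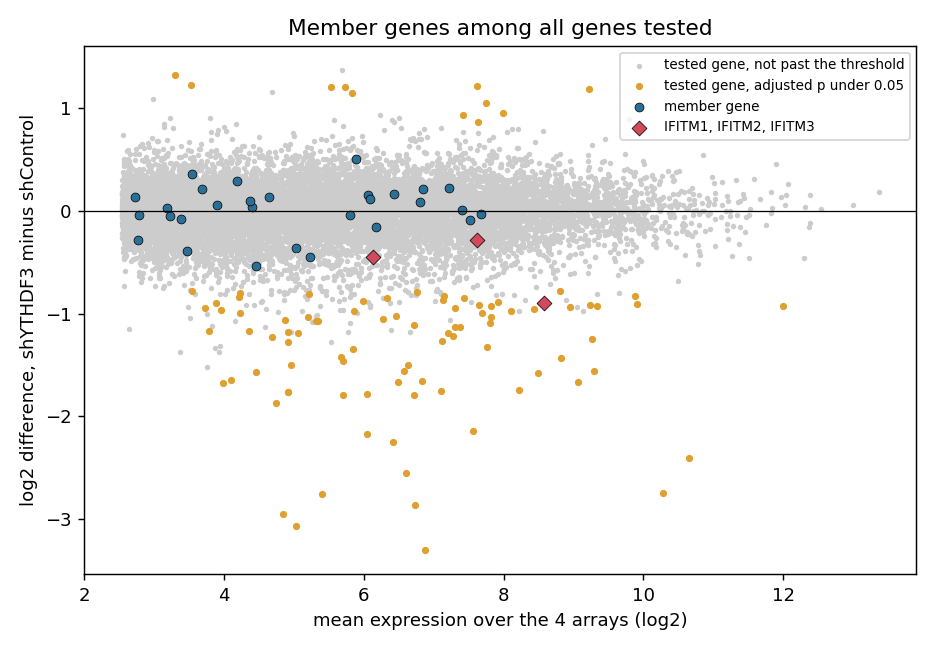
Log2 difference against mean log2 expression for all 12755 tested genes (grey), the 96 past the threshold (orange), the members (blue) and the IFITM genes (red diamonds). The members lie between -0.90 and 0.50, and none is among the orange points.

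The members' control means lay between 2.66 and 9.02, from just above the filter on low values to well above the array medians. Levels are log2 expression as deposited. Probe sets differ in how brightly they report, so levels are set here against the array medians (3.20 to 3.22 over all 53617 probe sets) and not against each other. In the control arrays 12 of the 32 members had a mean above 6, 10 lay between 4 and 6, and 10 lay below 4, a range in which RMA compresses signals and differences can be understated. The control mean of IFITM2 (9.02 ± 0.22, SD, n = 2) was above 96.5% of all probe sets. That of MX2 (2.66 ± 0.24) was below the array medians and close to the filter value of 2.54.

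**Figure D2:**
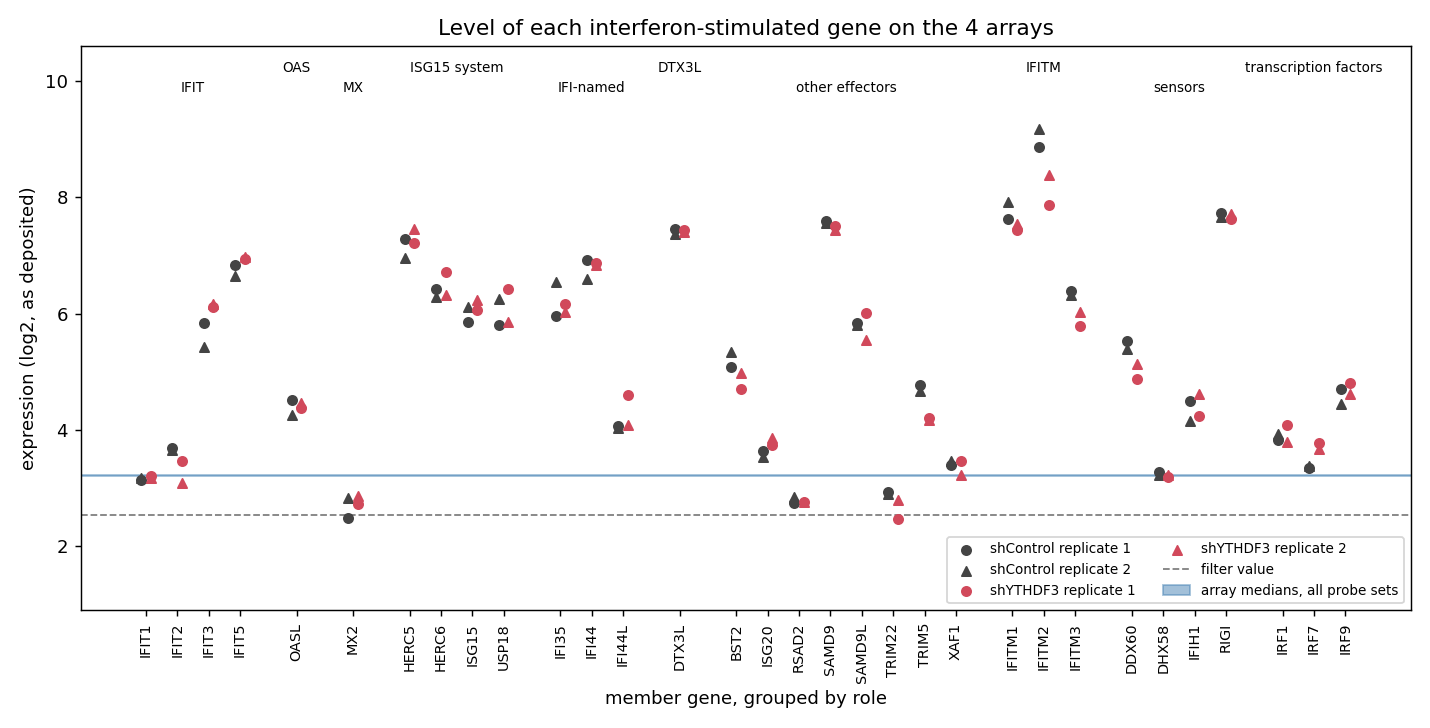
Log2 expression of the 32 members on each array, by role (black shControl, red shYTHDF3, circles replicate 1, triangles replicate 2), with the filter value of 2.54 dashed and the array medians as a blue band. The IFITM genes and TRIM5 are among 9 members with all red points below all black ones (28.1%, against 22.8% of all genes). RIGI, DTX3L and IFIT1 show them together.

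Among the effectors, the IFIT proteins, which bind viral RNA and hinder its translation, pointed in different directions. IFIT1, which recognises RNA with an incompletely methylated cap, read 3.15 and 3.18 in the control arrays and 3.20 and 3.18 in the knockdown arrays. It was at the array medians in all 4, so a transcript could be near background there, and its difference was 0.03 (95% interval -0.26 to 0.32). IFIT2, a partner of IFIT1 that can promote cell death, read 3.68 and 3.66 in control and 3.46 and 3.09 in knockdown arrays. Its knockdown values were both lower and also the more scattered, with a difference of -0.39 (-0.58 to -0.21 with an array left out) and an adjusted p of 0.312 from limma. As 1 of them lay below the array medians, this difference is not exact. IFIT3, which stabilises IFIT1 on RNA, read 5.84 and 5.42 in control against 6.11 and 6.16 in knockdown arrays. The groups did not overlap, and the difference of 0.50 (SE 0.17, 1.42-fold, adjusted p = 0.230 from limma) was the largest positive one on the list, although the control arrays themselves lay 0.42 apart and it ran from 0.30 to 0.71 with an array left out. IFIT5, which binds RNA with a 5′ phosphate end, read 6.83 and 6.64 in control and 6.94 and 6.96 in knockdown arrays, a difference of 0.22. Of the 4 IFIT genes 0 passed, and whether the differences of IFIT2 and IFIT3 differ from each other was not tested.

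**Figure D3:**
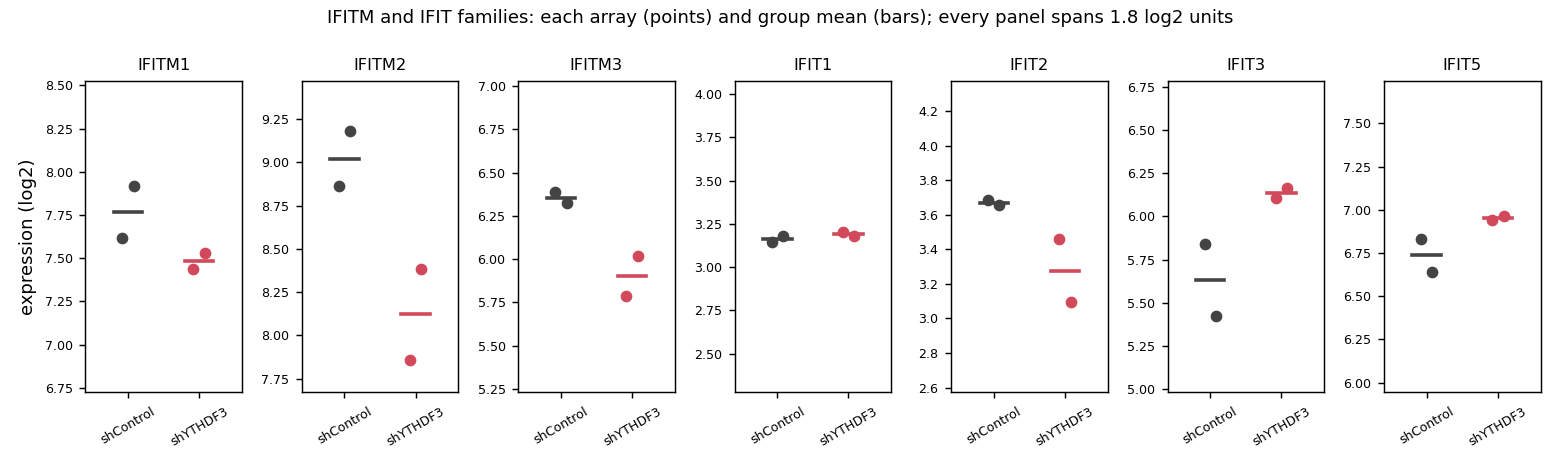
Log2 expression of the IFITM and IFIT genes on each array (points) with group means (bars), every panel spanning the same number of log2 units. All 3 IFITM genes have both shYTHDF3 points below both shControl points, whereas IFIT2 is lower, IFIT3 and IFIT5 are higher and IFIT1 is level.

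The OAS and MX families were represented by 1 gene each. OASL, a relative of the oligoadenylate synthetases that enhances RIG-I signalling, read 4.51 and 4.25 in control and 4.37 and 4.46 in knockdown arrays, so the groups overlapped (difference 0.04, interval -0.30 to 0.37). MX2, a dynamin-like GTPase that blocks nuclear entry of retroviral capsids, read 2.49 and 2.84 against 2.73 and 2.86, near the filter value.

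The ISG15 system attaches a ubiquitin-like protein to newly made proteins. Its 4 genes all had small positive differences, from 0.11 to 0.22, with overlapping groups in every case. ISG15 itself read 5.86 and 6.11 in control and 6.06 and 6.23 in knockdown arrays (difference 0.16). HERC5, the main human ISG15 ligase, read 7.27 and 6.95 against 7.21 and 7.46 (difference 0.22, adjusted p = 0.584 from limma), and its relative HERC6 differed by 0.16. USP18, which removes ISG15 and restrains the interferon receptor, had the widest interval of any member, -0.42 to 0.64. Its readings were 5.80 and 6.25 in control and 6.42 and 5.85 in knockdown arrays, so neither group was the higher one throughout.

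Of the 8 measured members of a mixed group of effectors 7 had negative differences and 0 passed. Among these 7, RSAD2, SAMD9L and XAF1 changed sign when an array was left out. TRIM5, which binds incoming retroviral capsids, read 4.77 and 4.66 in control and 4.21 and 4.17 in knockdown arrays. Both groups were tight and did not overlap, with a difference of -0.53 (SE 0.13, 1.45-fold, adjusted p = 0.133 from limma). BST2, the tetherin that holds budding virions on the cell surface, read 5.08 and 5.33 against 4.71 and 4.97, a difference of -0.37 (adjusted p = 0.339 from limma). TRIM22, another antiviral TRIM protein, read 2.93 and 2.90 against 2.47 and 2.79, below the array medians. SAMD9, a restriction factor for poxviruses, was well above the medians and nearly level, at 7.58 and 7.56 in control and 7.51 and 7.44 in knockdown arrays. Its paralog SAMD9L differed by -0.04, and XAF1, a pro-apoptotic binding partner of XIAP, by -0.08. RSAD2 (viperin), an enzyme that makes a chain-terminating nucleotide, read 2.75 and 2.85 in control and 2.76 and 2.75 in knockdown arrays, below the array medians in all 4. ISG20, an exonuclease, was the positive one, at 3.63 and 3.53 against 3.74 and 3.85 (difference 0.22).

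The remaining effectors overlapped or nearly did. IFI44 read 6.91 and 6.59 in control and 6.86 and 6.83 in knockdown arrays (difference 0.09). IFI44L, its paralog, read 4.06 and 4.03 against 4.59 and 4.08, so its difference of 0.29 came mostly from shYTHDF3 replicate 1 (0.036 to 0.55 with an array left out). IFI35, a partner of the STAT-binding protein NMI, read 5.96 and 6.53 against 6.17 and 6.02, with the control arrays further apart than the group means. DTX3L, a ubiquitin ligase that works with PARP9, read 7.45 and 7.36 against 7.43 and 7.40 and had the smallest difference on the list (0.0073, interval -0.29 to 0.30).

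The IFITM genes encode small membrane proteins that stop enveloped viruses from fusing with the cell. They were the only subclass of more than 1 gene whose members all had negative differences and no overlap between groups. Over all genes tested, 22.8% had lower knockdown values without overlap. The subclasses are small, and this contrast was not tested. None of the 3 IFITM genes passed. IFITM2 read 8.86 and 9.18 in control and 7.86 and 8.38 in knockdown arrays. The knockdown arrays were both lower but 0.52 apart, and the difference was -0.90 (SE 0.20, 1.87-fold, adjusted p = 0.115 from limma). When limma let the variance follow intensity, IFITM2 passed, at an adjusted p of 0.0263 from limma, and its adjusted p ran from 0.0263 to 0.438 across the alternatives. IFITM3 read 6.39 and 6.32 in control against 5.79 and 6.02 in knockdown arrays, a difference of -0.45 (adjusted p = 0.207 from limma). IFITM1 read 7.62 and 7.92 against 7.44 and 7.53, a difference of -0.28 (interval -0.63 to 0.07, adjusted p = 0.429 from limma), which ran from -0.43 to -0.13 with an array left out. Averaged over the 3 genes, the control arrays stood at 7.62 and 7.81 and the knockdown arrays at 7.03 and 7.31. These genes are related paralogs, and whether their probe sets pick up each other's transcripts was not tested, so they are not taken as 3 separate measurements.

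**Figure D4:**
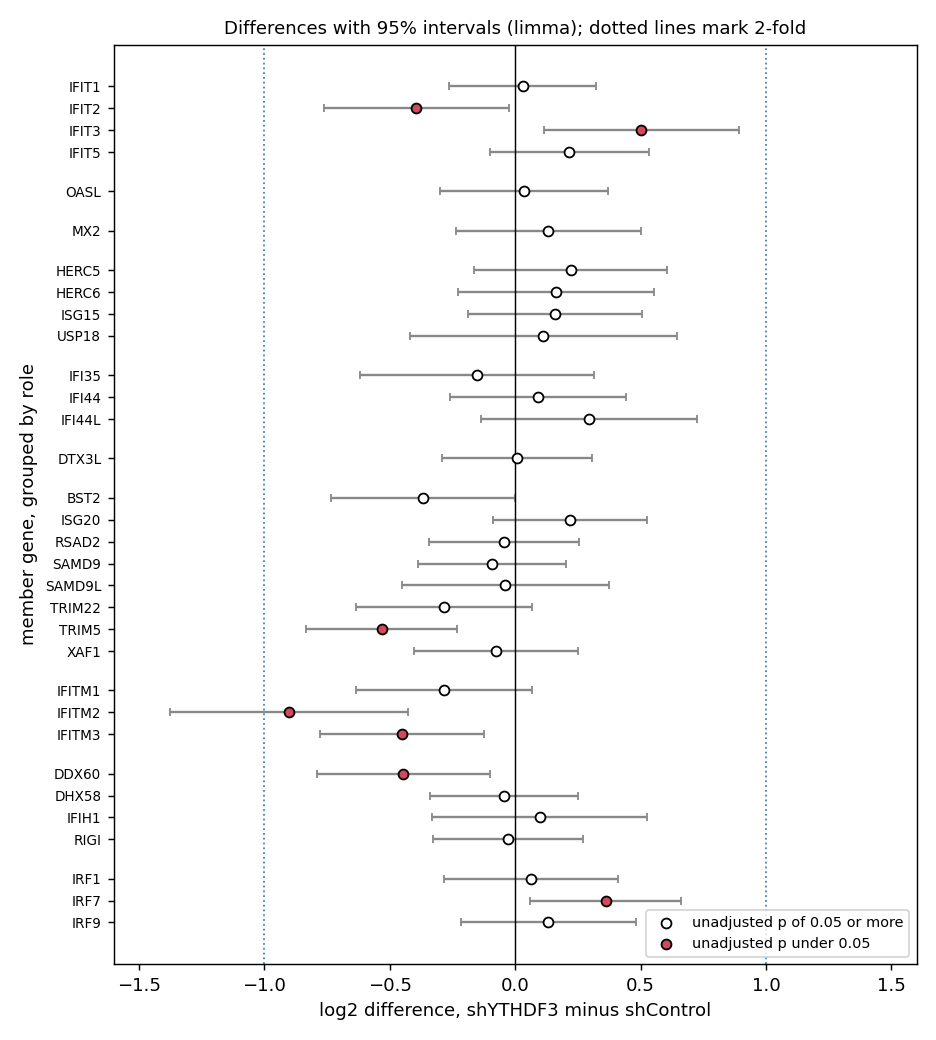
Log2 difference, shYTHDF3 minus shControl, of each member with its 95% interval from limma; red points have an unadjusted p under 0.05 and dotted lines mark 2-fold. Only the interval of IFITM2 crosses a 2-fold line. The 7 intervals that exclude 0 are those of the red points, and none of these members passed after adjustment. Of the 7, 5 are lower (15.6%, against 8.48% of all genes) and 2 are higher (6.25%, against 6.24%).

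Of the 4 measured RNA sensors 0 passed, and DDX60 had the one difference larger than 0.10 in size. RIGI, the sensor of RNA with a 5′ triphosphate end, was well above the array medians, at 7.72 and 7.67 in control and 7.62 and 7.71 in knockdown arrays. The groups overlapped, with a difference of -0.03 (interval -0.33 to 0.27). IFIH1 (MDA5), the sensor of long viral RNA, read 4.49 and 4.16 against 4.23 and 4.62 (difference 0.10). DHX58 (LGP2), a regulator of both sensors, lay at the array medians with 3.28 and 3.23 against 3.19 and 3.23. DDX60, a helicase described as a cofactor of RIG-I, read 5.52 and 5.38 in control and 4.87 and 5.14 in knockdown arrays. All knockdown values were below the controls, with a difference of -0.45 (SE 0.15, 1.36-fold, adjusted p = 0.229 from limma).

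The 3 measured transcription factors had positive differences, and 0 passed. IRF7, the main inducer of interferon-alpha genes, read 3.35 and 3.37 in control and 3.77 and 3.66 in knockdown arrays. The groups did not overlap, but the control values were close to the array medians, so the difference of 0.36 (adjusted p = 0.264 from limma) is not exact. IRF9, the DNA-binding part of the interferon-activated complex, read 4.70 and 4.45 against 4.80 and 4.61, a difference of 0.13. IRF1, a factor induced mainly by interferon-gamma, read 3.82 and 3.92 against 4.08 and 3.79, so its groups overlapped.

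Other genes of the pathway were taken from 5 lists of 116 genes in all. Of these 51 had a named probe set, 48 passed the filter on low values, and 0 of the 48 fell and 0 rose at an adjusted p under 0.05 from limma. At an unadjusted p under 0.05, 4 were lower (8.33%, against 8.48% of all genes) and 4 were higher (8.33%, against 6.24%), which is close to the background. All 21 listed interferon genes themselves, IFNB1 among them, and the receptor genes IFNAR1 and IFNAR2 were not analysed here.

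Among 8 receptor and JAK-STAT genes, SOCS3, a feedback inhibitor of cytokine receptors, read 5.72 and 6.06 in control and 6.77 and 6.59 in knockdown arrays. The difference was 0.79 (SE 0.16, adjusted p = 0.0921 from limma). A second probe set of SOCS3, with means of 2.35 and 2.77 that both lay below the array medians, differed by 0.42. The kinase gene JAK1 was level at 9.16 and 9.21 against 9.23 and 9.16. IFNGR1, a chain of the interferon-gamma receptor, differed by -0.29 and STAT3 by 0.26, and neither passed.

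In the induction pathway, from sensors to interferon genes, 17 genes were tested, of which 2 had lower and 2 had higher values with an unadjusted p under 0.05 (11.8% each, against 8.48% and 6.24% of all genes). TRIM25, a ubiquitin ligase that assists RIG-I, read 8.40 and 8.66 in control and 9.19 and 8.98 in knockdown arrays (difference 0.55, adjusted p = 0.165 from limma). CGAS, the cytosolic DNA sensor, differed by 0.46. TICAM1, the adaptor of TLR3, read 5.84 and 5.77 against 5.37 and 5.19 (difference -0.53, adjusted p = 0.148 from limma), and NLRX1, a mitochondrial regulator of this pathway, differed by -0.39.

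Of 19 further interferon-stimulated genes 2 were lower (10.5%, against 8.48% of all genes) and 1 was higher (5.26%, against 6.24%) at an unadjusted p under 0.05. SLFN5, a nuclear interferon-stimulated gene, read 9.07 and 8.99 in control and 8.52 and 8.11 in knockdown arrays, a difference of -0.71 (SE 0.17, adjusted p = 0.122 from limma). UBE2L6, the conjugating enzyme for ISG15, differed by 0.31. GBP4, an interferon-induced GTPase, was the other one on the lower side, with means of 2.90 and 2.52 that both lay below the array medians, so the size of its difference is not given. The interferon-induced genes CXCL10, GBP5 and SLFN11 did not pass the filter on low values. Of 4 tested genes of MHC class I presentation, ERAP1 (-0.33), B2M (0.19) and ERAP2 (0.12) had the smallest p and none passed. A dimmer second probe set of B2M differed by 0.82.

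**Figure D5:**
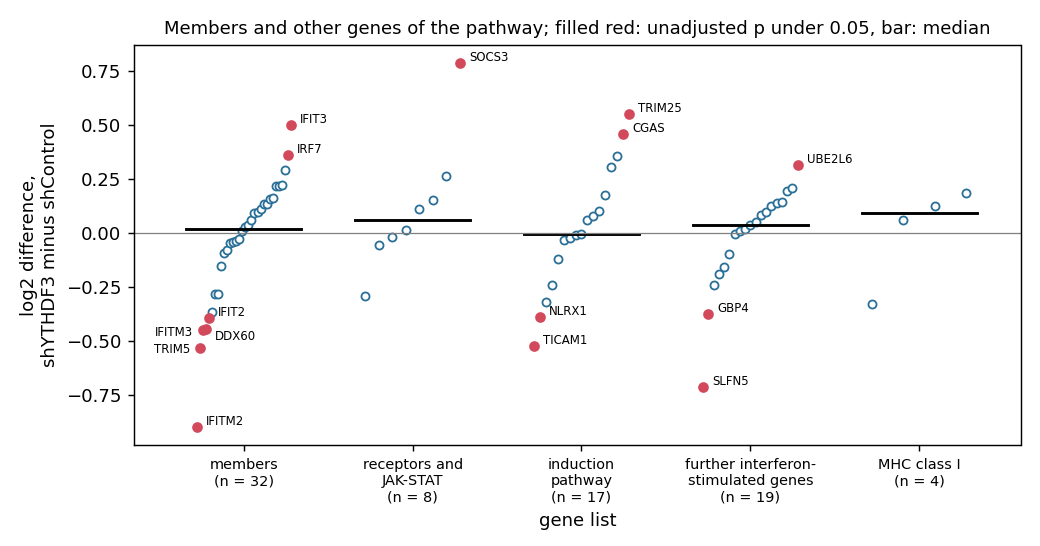
Log2 differences of the 32 members and of 48 other pathway genes in 4 lists, sorted within each list (bar, median; red, unadjusted p under 0.05). SOCS3 at 0.79 and IFITM2 at -0.90 are the extremes, and the medians lie between -0.01 and 0.09.

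FOXO3 transcript, named because of the reported link to YTHDF3, read 4.62 and 4.60 in control and 5.43 and 5.00 in knockdown arrays. The difference of 0.61 (SE 0.17) had an adjusted p of 0.168 from limma, and FOXO3 protein was not measured.

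Facts about the arrays bear on all of this. Over the 32 members the replicate arrays correlated at 0.991 in the control and 0.988 in the knockdown group, and the SDs of the replicate differences were 0.24 and 0.27. Probe sets named YTHDF3 numbered 0, so the level of the targeted gene was not analysed here and the labels have no check from it. Of the marker genes of this mesenchymal-like line, VIM, CD44, AXL, ANXA1 and MSN had control means of 8.12 to 12.4, S100A4 was near the array medians (3.07), and FN1 (fibronectin) fell by 1.50 on the log2 scale (adjusted p = 0.0121 from limma). Of 12 measured luminal and epithelial markers, ESR1, PGR, ERBB3 and ESRP1 lay below the array medians and the other 8 above them, from CLDN4 at 3.87 to KRT18 at 8.45. Of the 10 leukocyte markers CD14, CD68 and CSF1R were measured, at control means of 2.91, 10.7 and 3.38, and the 3 measured endothelial markers PECAM1, VWF and KDR lay at 2.63, 3.08 and 5.06. None of these 6 markers passed.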

How the data were processed

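Total RNA from 4 samples was labelled and hybridised to Affymetrix arrays, per the labels' protocols. The deposited values are log2 expression, 1 column per array. The submitters' processing notes name RMA; nothing used here gives its version or settings or the genome build. This method evens out arrays and compresses weak signals, so a shift shared by all genes is removed before deposit. The platform annotation gave 16098 of the 53617 probe sets a single symbol, and RefSeq changed 0 symbols. The other 37519 had no symbol or more than 1 and were left out. For each gene the probe set of highest mean was used, and the gene was tested if that mean was at or above the 30th percentile over all probe sets (2.54). Limma 3.58.1 under R 4.3.3 was fitted across all 12755 genes without covariates (lmFit, then eBayes; tests were 2-sided). P-values were adjusted by Benjamini-Hochberg, and the threshold was 0.05. Residual degrees of freedom were 2 and prior ones 5.30, so adjusted p-values rest on the spread shared across genes: an exact permutation test of 2 against 2 arrays has a smallest 2-sided p of 0.333. The script was tested on simulated data.

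Every measured member is named. From each pathway list the genes with an adjusted p under 0.05 are named, and otherwise up to 3 of smallest p; JAK1, NLRX1, the genes below the filter and those not analysed are named in addition, after values were seen. The members and lists were chosen with earlier results of these data known, and members are described by counts and medians. The number of arrays limits the precision. Nothing in the labels ties replicate numbers to a shared batch, so no block was used. Other settings tried concerned the filter, the choice of probe set, normalization, variance model, replicate block, threshold and each array's omission.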

Additional observations from a re-analysis of the deposited data

How the results depend on the processing

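The count of 0 members past limma's threshold held under every alternative run except an intensity trend in the variance model, which called 1, IFITM2, with 6 members at an unadjusted p under 0.05 against 7 in the fit as reported. For the pathway genes the count of 0 became 3 with the trend (SOCS3, TRIM25 and SLFN5) and 1 at an adjusted p under 0.1; 8 had an unadjusted p under 0.05. Over all genes the 96 calls became 375 with the trend, 167 with the filter at the median, 250 at an adjusted p under 0.1, and 0 to 36 with an array left out. With the replicate block 11 genes and 0 members were called; the replicate differences of the groups correlated at 0.04 over genes, so the numbers are not taken to pair the arrays. With 1 array left out the lone array is assumed to vary like the others. Then the median of the mixed effectors ran from -0.16 to -0.049. The sign held for 19 members, including the IFITM and IFIT genes, TRIM5, DDX60 and IRF7, in each alternative that gave a value, which for IFIT1 and TRIM22 leaves out the filter at the median. Leaving out an array turned the sign of the other 13, over ranges of -0.093 to 0.16 for OASL, -0.041 to 0.31 for MX2, -0.17 to 0.40 for USP18, -0.036 to 0.36 for HERC6, -0.095 to 0.0077 for RSAD2, -0.28 to 0.20 for SAMD9L, -0.20 to 0.041 for XAF1, -0.44 to 0.13 for IFI35, -0.069 to 0.25 for IFI44, -0.037 to 0.052 for DTX3L, -0.096 to 0.29 for IFIH1, -0.073 to 0.019 for RIGI and -0.082 to 0.21 for IRF1. Of those that kept their sign, IFITM2 ranged from -1.16 to -0.64, IFIT5 from 0.12 to 0.31, ISG15 from 0.031 to 0.28, HERC5 from 0.061 to 0.38, IRF9 from 0.0076 to 0.26, BST2 from -0.50 to -0.24, TRIM22 from -0.44 to -0.13, SAMD9 from -0.13 to -0.058, DHX58 from -0.069 to -0.021 and IFIT1 from 0.013 to 0.046. The filter at the median removed IFIT1, MX2, RSAD2 and TRIM22, and so gave no value for the MX family. The cause of these shifts was not tested. Weak signals, with control means below 4, limit what can be seen for IFIT1, IFIT2, IRF7, MX2, RSAD2, TRIM22, DHX58, XAF1, ISG20 and IRF1.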

Other observations

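The IFITM and IFIT genes lie in clusters, and their protein-coding neighbours in RefSeq (GRCh38.p14) were read as values, a choice made after the members' values were seen. Beside the IFITM genes, IFITM5, a bone-specific relative, had a log2 difference of -0.05 at a control mean of 3.11, SIRT3 one of -0.0026, PKP3 -0.10, SIGIRR 0.05, ANO9 -0.23 and RNH1 -0.30, while RIC8A and PTDSS2 had 0.26 and 0.20. None of these 8 passed limma's test over all genes, and RNH1, at an adjusted p of 0.414, was the one of negative sign whose groups did not overlap. Beside the IFIT genes, the kinesin gene KIF20B had a difference of -0.42 and PANK1, a coenzyme A synthesis enzyme, one of 0.31, with adjusted p-values of 0.284 and 0.339 from limma, and STAMBPL1, RPP30 and ANKRD1 had 0.06, 0.09 and 0.10. The IFITM differences of -0.28 to -0.90 were more negative than that of each measured neighbour except RNH1. The value of RNH1 lay between those of IFITM1 and IFITM3, and that of ANO9 was close to that of IFITM1. The neighbours PSMD13, NLRP6, PGGHG and B4GALNT4 were not among the genes tested, and the contrast with the neighbours was not tested.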
